A study of Mus musculus with 6 samples.

Results

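Wnt ligands, their receptors and the secreted proteins that tune them were followed in Apc Min mouse organoids, that is, intestinal epithelium grown as small gut-like bodies in culture. The set was defined by gene symbol and held 50 genes, all 50 of which had a row among the 24956 rows of the expression table. Its members were 19 Wnt ligands, 10 Frizzled receptors, the co-receptors Lrp5 and Lrp6, the 3 receptors Ryk, Ror1 and Ror2, 4 Sfrp antagonists, 4 Dkk genes, 4 R-spondins, the carrier Wls and the 3 Dishevelled genes. RNA-seq libraries came from organoids in control medium (3 libraries) and from organoids in low glutamine medium (3 libraries), as their titles and source names say, although the treatment label names low glutamine for all 6. All 6 libraries shared the Apc Min genotype, in which 1 Apc allele carries a truncating mutation. Apc belongs to the complex that degrades beta-catenin. The series title concerns alpha-ketoglutarate, a metabolite made from glutamine, and its effect on Wnt signalling and differentiation. The glutamine concentrations, the time in each medium, the intestinal segment and the number of animals or lines are not given in the sources used here. Libraries of a group are described as biological replicates, without saying whether they came from separate animals or cultures, so p-values reflect no more than the variation among these 6 libraries, which may be technical.

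Wnt proteins are lipid-modified ligands that the membrane carrier Wls takes to the cell surface. At the receiving cell they bind a Frizzled receptor together with Lrp5 or Lrp6, and Dishevelled proteins relay the signal so that beta-catenin escapes degradation. Ryk, Ror1 and Ror2 are alternative Wnt receptors, Sfrp proteins bind Wnt ligands outside the cell, most Dkk proteins block Lrp5 and Lrp6, and R-spondins strengthen the signal by keeping Frizzled receptors at the surface. In the small intestine, Paneth cells make Wnt3 for the neighbouring stem cells, and the mesenchyme supplies further Wnt ligands and R-spondins.

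Control and low glutamine libraries differed in transcripts of sex and of cell types, not only in those of the members. Values are in RPKM, reads per kilobase of transcript scaled to library depth, which takes length into account, so levels of different genes can be compared. Of 11 epithelial markers, 11 exceeded 1 RPKM. By limma at an adjusted p under 0.05, 4 were higher in low glutamine, Krt8 and Epcam among them, and 7 were lower. Krt20 fell the most, from 72.9 to 11.8 RPKM. Xist stood at 87.3 ± 3.78 RPKM in control against 0.0286 ± 0.00577 RPKM in low glutamine. The Y-linked Eif2s3y stood at 0 in every control library and at 25.2 to 31.4 RPKM in low glutamine. By these transcripts the control organoids were female and the low glutamine organoids male, so the groups came from different animals. The medium and this difference of sex and origin cannot be told apart for any gene here. All 50 members lie on autosomes. Paneth cell markers, the defining products of the epithelial source of Wnt3, were higher for 14 of 14 genes, at a median log2 fold change of 2.14. Of these, Defa5 averaged under 1 RPKM in control (0.976 RPKM, against 44.2 RPKM in low glutamine). Stem cell markers were higher for 10 of 10 genes. Enterocyte markers were lower for 10 of 12, and the other 2, Alpi and Anpep, were higher (ratios of 1.78 and 2.11). Over all genes tested, 36.1% were higher and 30.3% lower. Of 15 mesenchymal markers, Vim alone reached 1 RPKM (3.29 and 11.5 RPKM), Postn was higher (0.0394 and 0.827 RPKM) and Pdgfrb lower (0.271 and 0.0739 RPKM) in low glutamine, and Col3a1, Lum and Foxl1 were at 0 in all 6 libraries. Summed over their genes, the immune, endothelial and neural lists reached at most 2.98, 0.590 and 6.05 RPKM in any library. Among immune markers, Ptprc was at or under 0.0217 RPKM. Cd68 went from 0.685 RPKM in control to 1.998 RPKM in low glutamine, and Itgam from 0.783 to 0.230 RPKM. The endothelial Emcn and the neural Sox10 were at 0, and the neural Tubb3 stood at 0.381 and 4.77 RPKM. In bulk libraries, more cells of a type and more RNA per cell cannot be told apart, and the part of these cell types in the changes of the members was not tested.

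Of the 50 members, 17 were expressed, which here means an average of 1 RPKM or more across the 6 libraries. These 17 were 1 of 19 ligands (Wnt3), 7 of 10 Frizzled receptors, both Lrp co-receptors, Ryk and Ror2, 1 of 4 Sfrp genes (Sfrp5), Wls and all 3 Dishevelled genes. No Dkk gene and no R-spondin reached the limit. Fzd9 lay just above it at 1.01 RPKM, and Fzd8 and Rspo4 lay just below it at 0.799 and 0.640 RPKM. By limma, 12 of the 17 were higher in low glutamine, 3 were lower and 2 did not pass at an adjusted p under 0.05. Over all 11082 genes tested, 66.4% passed, 36.1% as higher and 30.3% as lower. Fzd1 and Fzd9 reached the limit only through the low glutamine libraries and therefore had to differ. Of the 15 members above 1 RPKM in both groups, 10 were higher, 3 lower and 2 did not pass. The shares over all genes tested also include genes that reached the limit through a single group. Over the 17 members the log2 fold change had a median of 0.64, against 0.03 over all genes tested. Fzd1 and Fzd9, at 1.05 and 0.85, count in this median and had to lie higher. The median is the value of Lrp5, and without Fzd1 and Fzd9 the middle value is that of Ror2, 0.29.

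**Figure D1:**
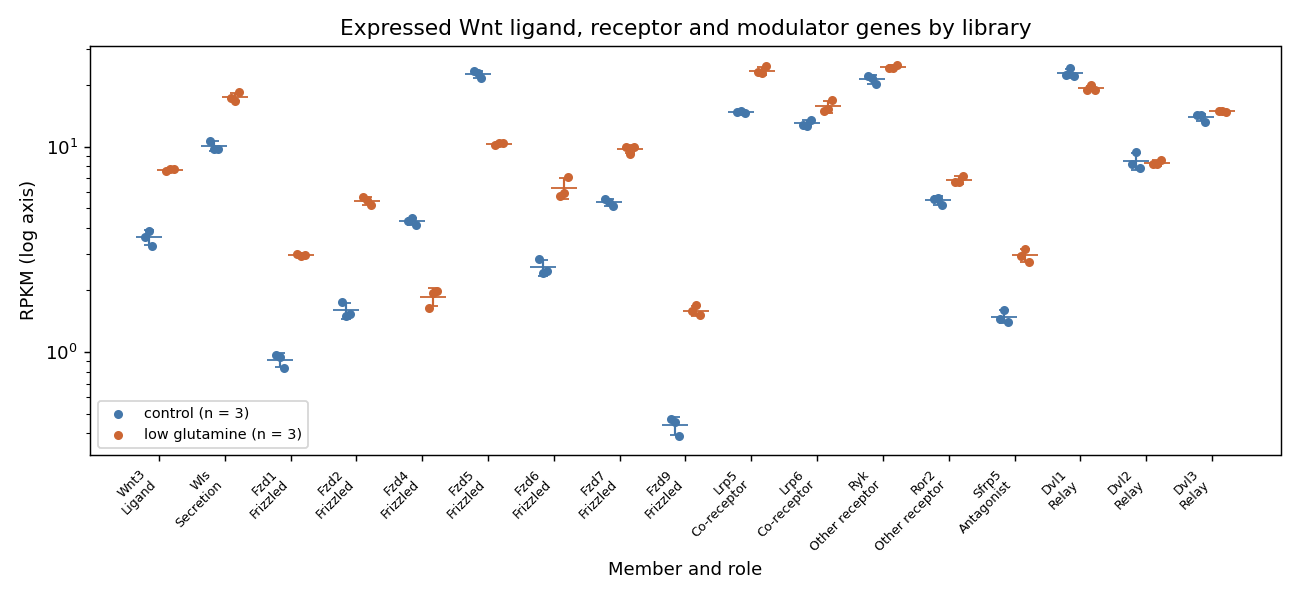
RPKM (log axis) of the 17 expressed members, ordered by role, in 3 control and 3 low glutamine libraries. Points are libraries and bars the group mean with its SD; Fzd4 and Fzd5 lie lower in low glutamine, and Fzd1, Fzd2, Fzd6, Fzd7, Fzd9, Wnt3, Wls, Lrp5 and Sfrp5 lie at least 1.5-fold higher.

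The sequences below are the 250 bases upstream of the RefSeq start (build GRCm38.p6) of the main ligand, of the pair of Frizzled genes that fell, and of Fzd7, whose transcript level came close to that of Fzd5 in low glutamine. They are written 5′ to 3′ on the strand of the gene. Capitals mark a word of the TCF/LEF type, the DNA-binding partners of beta-catenin.
Wnt3 (chr11:103773925-103774174, plus strand): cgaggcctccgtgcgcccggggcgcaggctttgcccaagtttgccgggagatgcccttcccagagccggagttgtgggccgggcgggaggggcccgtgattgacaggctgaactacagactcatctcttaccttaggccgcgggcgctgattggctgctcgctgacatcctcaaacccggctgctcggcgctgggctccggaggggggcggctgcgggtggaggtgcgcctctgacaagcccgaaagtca
Fzd5 (chr1:64737751-64738000, minus strand): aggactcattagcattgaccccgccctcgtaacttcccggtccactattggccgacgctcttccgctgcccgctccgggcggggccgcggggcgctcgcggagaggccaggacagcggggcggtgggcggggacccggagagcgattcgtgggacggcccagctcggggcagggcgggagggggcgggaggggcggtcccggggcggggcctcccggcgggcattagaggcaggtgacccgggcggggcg
Fzd4 (chr7:89404116-89404365, plus strand): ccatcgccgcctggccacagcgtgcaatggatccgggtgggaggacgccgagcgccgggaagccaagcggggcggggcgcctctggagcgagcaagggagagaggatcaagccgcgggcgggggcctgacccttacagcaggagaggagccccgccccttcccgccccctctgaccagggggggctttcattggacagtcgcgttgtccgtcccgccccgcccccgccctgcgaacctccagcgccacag
Fzd7 (chr1:59481897-59482146, plus strand): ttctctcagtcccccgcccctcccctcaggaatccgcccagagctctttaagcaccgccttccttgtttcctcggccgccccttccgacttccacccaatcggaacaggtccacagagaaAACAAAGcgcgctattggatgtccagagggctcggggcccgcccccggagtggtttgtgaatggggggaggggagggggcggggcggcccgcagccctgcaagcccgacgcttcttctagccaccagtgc

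The words searched on both strands were CTTTGAA as the first form, CTTTGAT as the second form, CTTTGTA as the third form and CTTTGTT as the fourth form. Member windows on chromosome 18, where Fzd8 and Wnt8a lie, were left out, a filter not applied to the windows of all genes. Otherwise RefSeq windows were matched for 34 of the 50 members, 37 windows in all. A word was held by 4 of these 37, against 14.8% of all 32851 windows of the same length. Among the 4 printed promoters a word was found in that of Fzd7 alone, and such a match is a description, not a binding site. All 4 were rich in CG dinucleotides, with 22 in Wnt3, 32 in Fzd5, 25 in Fzd4 and 17 in Fzd7, where the median window held 6. The median over the members' windows was 22.

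Wnt3 was the main Wnt ligand transcript in every library and rose in low glutamine. This gene (chromosome 11, 103774175 to 103818021 of mm10, plus strand) measured 3.64, 3.89 and 3.29 RPKM in control replicates 1 to 3 and 7.61, 7.73 and 7.74 RPKM in low glutamine replicates 1 to 3. The low glutamine libraries all lay above the control libraries and close to each other. The ratio of the means was 2.13, with a log2 fold change of 0.92 ± 0.06 (SE) on the log2(RPKM + 1) scale and a limma adjusted p of 3.9e-08. Fold changes on this scale understate the change of low genes. The summed Paneth cell markers, 2597 to 2750 RPKM in control and 7373 to 8150 RPKM in low glutamine, moved with Wnt3, and their part in it was not tested.

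Summed over all 19 ligands, Wnt transcripts reached 4.13 ± 0.314 RPKM under control conditions (SD, n = 3) and 10.2 ± 0.178 RPKM under low glutamine, without overlap. Wnt3 made up 87.2% ± 1.76 (SD, n = 3) of this sum in control and 75.6% ± 1.91 in low glutamine. The other 18 ligands together stood at 0.526 ± 0.0758 RPKM and 2.49 ± 0.238 RPKM. Both the main ligand and the rest were thus higher, and the rest by the larger ratio.

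Wls, the carrier that all lipid-modified Wnt proteins need for secretion (chromosome 3, 159839650 to 159938666), rose beside Wnt3. It measured 10.7, 9.75 and 9.69 RPKM in control against 17.2, 16.7 and 18.3 RPKM in low glutamine, without overlap. The ratio was 1.73 and the log2 fold change 0.74 ± 0.06 (limma adjusted p = 2.3e-07).

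The 18 ligands below 1 RPKM ranged from 0 to a mean of 0.316 RPKM. For 12 of them the low glutamine values lay wholly above the control values. Among all members below the limit that were not listed at 0 throughout, this held for 18 of 29, and the reverse held for 0 of 29. Over all 7764 rows of that kind, 31.9% lay wholly above and 6.54% wholly below. A fit without any filter on low values called 14 of the 29 higher and 0 lower, where 25.9% and 5.15% of such rows were called. That setting, which tested 18846 rows and called 30.2% higher and 18.6% lower, gives the adjusted p-values of low members below. Mesenchymal markers, from a cell type that also makes several of these ligands, summed to 3.29 to 4.08 RPKM in control and 11.7 to 13.7 RPKM in low glutamine, most of it Vim, with Col3a1, Lum and Foxl1 at 0. Among these markers at the level of the low ligands, Postn rose from 0.0394 to 0.827 RPKM (adjusted p = 1.3e-05, limma without a filter) and Pdgfrb fell from 0.271 to 0.0739 RPKM (adjusted p = 1.6e-04). The part of mesenchymal cells in the values of the low ligands was not tested.

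At these levels the values rest on few reads. The libraries held an estimated 24.4 to 35.4 M reads each (M, mega), so each low value could be turned into a whole read number, from an annotated length or, where none gave whole numbers, from the smallest length that did, which makes the latter numbers lower bounds. Wnt6 (chromosome 1, 74754342 to 74785322) was seen in 2, 1 and 0 reads in the control libraries and in 38, 29 and 30 reads in the low glutamine libraries, or 0.0149 ± 0.0155 and 0.493 ± 0.0597 RPKM (adjusted p = 5.6e-05, limma). Wnt10a lies 6696 bases downstream of it on the same strand (74792019 to 74804176), and had 0, 1 and 0 reads in control and 25, 12 and 23 reads in low glutamine (adjusted p = 0.0042, limma). These neighbours thus went from nearly no reads to a low but repeated signal in all 3 libraries.

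Another neighbouring pair is Wnt9b and Wnt3, on opposite strands of chromosome 11 with RefSeq bounds that overlap by 1098 bases. Wnt9b (103727362 to 103775272) had 26, 27 and 15 reads in control and 71, 65 and 53 reads in low glutamine. Its mean level was 0.163 ± 0.0247 RPKM in control against 0.438 ± 0.0233 RPKM in low glutamine, a ratio of 2.69 (adjusted p = 1.4e-04, limma). Wnt9b was thus higher as Wnt3 was, at a far lower level. Whether reads kept their strand was not stated in the labels.

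The remaining neighbouring pairs each held a ligand with next to no reads. On chromosome 15, Wnt10b had 0 reads in each control library and 10, 7 and 6 reads in low glutamine (adjusted p = 5.5e-04, limma), while Wnt1, 11650 bases away on the other strand, was listed at 0 in all 6 libraries. On chromosome 11, Wnt9a had 0, 4 and 0 reads in control and 9, 4 and 5 reads in low glutamine (adjusted p = 0.051, limma), and its neighbour Wnt3a had 1 read in a single low glutamine library.

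Among the ligands known for signalling apart from beta-catenin, Wnt5b was the highest. It had 11, 7 and 8 reads in control and 57, 43 and 33 reads in low glutamine, or 0.110 ± 0.0313 and 0.521 ± 0.0987 RPKM (adjusted p = 7.6e-04, limma). Wnt5a had 3, 1 and 1 reads in control and 19, 17 and 13 reads in low glutamine (adjusted p = 4.5e-04, limma). Wnt4 had 6 control reads and 38 low glutamine reads in all, and Wnt2b, a ligand of the gut mesenchyme, 45 and 81. Wnt7a and Wnt7b had 0 control reads and 12 and 15 low glutamine reads. Wnt2, Wnt8a, Wnt8b and Wnt11 were at or under 0.0422 RPKM in every library. Wnt16 was, like Wnt1, listed at 0 throughout. For these, 3 reads as the limit that a count of 0 allows correspond to 0.0258 to 0.0517 RPKM, depending on the gene and the library's depth and covering counting error only.

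**Figure D2:**
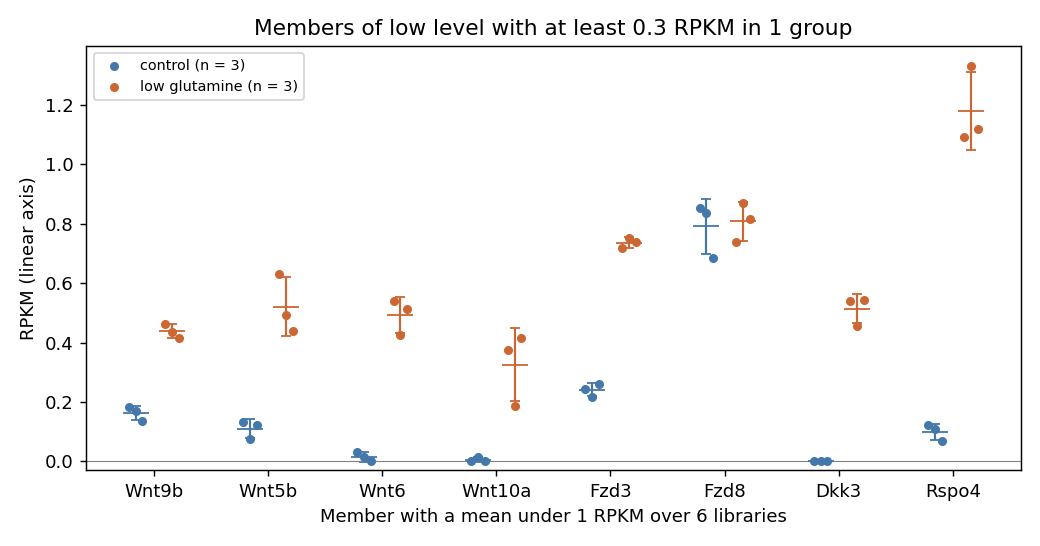
RPKM (linear axis) of the 8 members with a mean under 1 RPKM and at least 0.3 RPKM in 1 group, by library (points), with group means and SDs. In 7 of the 8 the low glutamine libraries lie wholly above the control libraries, and in Fzd8 the groups overlap. These 7 reached 0.3 RPKM only through low glutamine, so the direction of their means was set by this choice. Of all rows under 1 RPKM and not at 0 throughout, 31.9% lay wholly above.

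The makeup of the Frizzled receptors differed between the media while their sum lay close to level. Summed over the 10 genes, Frizzled transcripts stood at 40.3, 38.9 and 36.9 RPKM in control against 39.3, 39.2 and 40.7 RPKM in low glutamine, and the groups overlapped. Fzd5 alone made up 58.1% ± 0.216 (SD, n = 3) of the sum in control and 26.0% ± 0.463 in low glutamine. Shares within a library do not depend on how libraries are scaled. The sum does: its log2 ratio was 0.04 as deposited, 0.16 after bringing the libraries to an equal sum and -0.06 with median-of-ratios scaling.

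**Figure D3:**
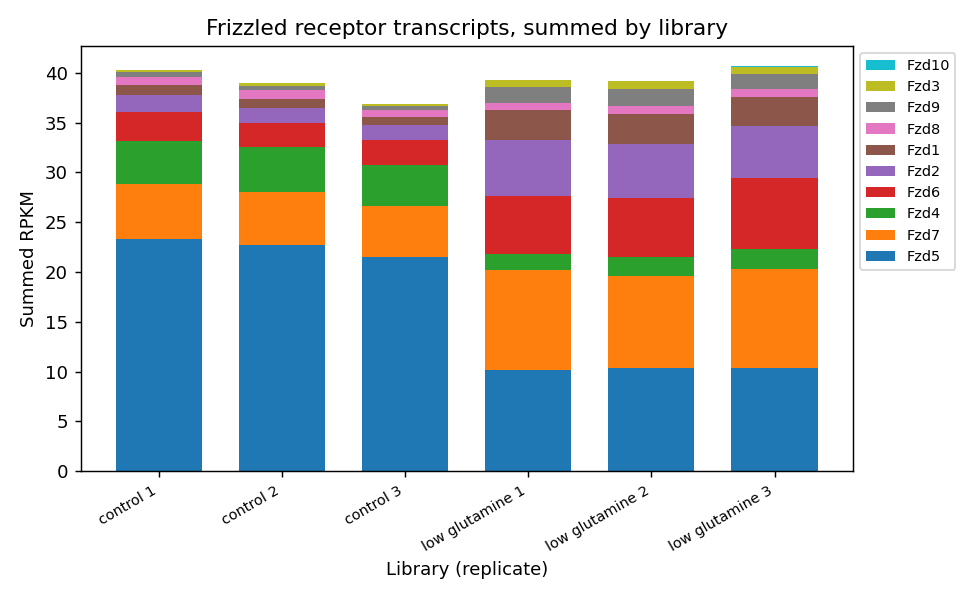
Summed RPKM of the 10 Frizzled genes in each of 6 libraries, with each gene as a segment. The bars are between 36.9 and 40.7 RPKM high, and the Fzd5 segment shrinks from between 21.5 and 23.3 RPKM in control to between 10.2 and 10.4 RPKM in low glutamine.

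Fzd5, a receptor known for Wnt signalling in the intestinal crypt and in Paneth cell maturation (chromosome 1, 64730558 to 64737750), fell. It measured 23.3, 22.7 and 21.5 RPKM in control against 10.2, 10.4 and 10.4 RPKM in low glutamine. The control libraries were all above 21 RPKM and the low glutamine libraries all below 11 RPKM. The mean was 2.18-fold lower (log2 fold change -1.05 ± 0.05, limma adjusted p = 2.7e-09). An opposite-strand transcript without a row in the table, Gm38058, shares 1233 exon bases with Fzd5 and cannot be told apart from it without strand.

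Fzd4, also known as the receptor of the non-Wnt ligand norrin (chromosome 7, 89404366 to 89410110), fell as well. It measured 4.33, 4.51 and 4.16 RPKM in control against 1.63, 1.94 and 1.99 RPKM in low glutamine, without overlap. The mean was 2.34-fold lower (-0.90 ± 0.07, limma adjusted p = 1.1e-07). Tspan12, the tetraspanin that assists norrin at Fzd4, rose in the same libraries from 23.4 ± 2.27 to 61.7 ± 1.16 RPKM.

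Fzd7, a Wnt receptor of Lgr5-positive intestinal stem cells (chromosome 1, 59482147 to 59486955), rose. It measured 5.55, 5.39 and 5.13 RPKM in control against 10.002, 9.20 and 9.93 RPKM in low glutamine, a ratio of 1.81 (0.75 ± 0.05, limma adjusted p = 1.2e-07). In control its level was 0.238 ± 5.75e-04 times that of Fzd5, and in low glutamine 0.943 ± 0.0479 times. Fzd5 remained the highest Frizzled transcript in each low glutamine library, by a narrow margin.

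Fzd1 and Fzd2 belong with Fzd7 to the same Frizzled subfamily, and both rose by more than Fzd7 did. Fzd2 (chromosome 11, 102604431 to 102608058) measured 1.76, 1.495 and 1.52 RPKM in control against 5.66, 5.47 and 5.19 RPKM in low glutamine, a ratio of 3.42 (1.31 ± 0.06, limma adjusted p = 2.1e-09). Fzd1 (chromosome 5, 4753839 to 4758216) measured 0.966, 0.942 and 0.832 RPKM in control against 2.98, 2.94 and 2.96 RPKM in low glutamine, a ratio of 3.24 (1.05 ± 0.06, limma adjusted p = 1.4e-08). No library of either gene overlapped the other group. Their shares of the Frizzled sum went from 4.11% to 13.7% for Fzd2 and from 2.36% to 7.45% for Fzd1.

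Fzd6, often described as a receptor that restrains beta-catenin signalling and acts in planar polarity (chromosome 15, 39006149 to 39038192), rose too. It measured 2.84, 2.41 and 2.48 RPKM in control against 5.77, 5.94 and 7.14 RPKM in low glutamine, with replicate 3 the highest, and a ratio of 2.44 (1.02 ± 0.08, limma adjusted p = 1.6e-07). Fzd9 (chromosome 5, 135248938 to 135251047), an intronless gene, was seen in 31, 34 and 20 reads in control and in 113, 117 and 90 reads in low glutamine. In RPKM these were 0.471, 0.455 and 0.388 in control and 1.57, 1.68 and 1.51 in low glutamine, a ratio of 3.63 (0.85 ± 0.07, limma adjusted p = 2.8e-07).

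The 3 Frizzled genes below the limit differed among themselves. Fzd3, a receptor of planar polarity and axon guidance, had 97, 98 and 81 reads in control and 311, 316 and 266 reads in low glutamine, or 0.240 ± 0.0217 and 0.736 ± 0.0181 RPKM (adjusted p = 2.5e-05, limma without a filter). Fzd8 had 89, 99 and 56 reads in control and 84, 96 and 77 in low glutamine, or 0.791 ± 0.0919 and 0.808 ± 0.0670 RPKM, and did not pass in that fit (adjusted p = 0.85). Fzd10 had 0 control reads and 2, 1 and 3 low glutamine reads.

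Both co-receptors rose, Lrp5 by more than Lrp6. Lrp5 (chromosome 19, 3584825 to 3686585) measured 14.7, 14.8 and 14.5 RPKM in control against 22.9, 22.8 and 24.6 RPKM in low glutamine, a ratio of 1.60 (0.64 ± 0.05, limma adjusted p = 3.2e-07). Lrp6 (chromosome 6, 134446476 to 134566913) measured 12.8, 12.6 and 13.5 RPKM in control against 14.9, 15.2 and 16.9 RPKM in low glutamine, a ratio of 1.21 (0.25 ± 0.06, limma adjusted p = 0.0021). The ratio of Lrp5 to Lrp6 within a library was 1.13 ± 0.0498 in control and 1.497 ± 0.0396 in low glutamine. This ratio did not overlap between the groups.

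Of the alternative receptors, Ryk has an inactive kinase domain. Over the 6 libraries it was the most abundant member of the whole set, at a mean of 22.8 RPKM. In control, Dvl1 and Fzd5 lay above it, at 22.8 and 22.5 RPKM. Ryk was modestly higher in low glutamine, at 21.3 ± 1.01 and 24.4 ± 0.590 RPKM (0.19 ± 0.05, limma adjusted p = 0.0077). Ror2, a receptor for Wnt5a, stood at 5.46 ± 0.249 and 6.88 ± 0.293 RPKM (0.29 ± 0.06, limma adjusted p = 6.2e-04). Its relative Ror1 had 3 control reads and 25 low glutamine reads in all (adjusted p = 0.023, limma without a filter). Lrp6, Ryk and Ror2 were higher under every scaling tried, with their smallest log2 fold changes over the alternatives at 0.17, 0.10 and 0.18.

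Among the secreted antagonists, Sfrp5 was the 1 expressed gene. This gene, at 42197971 to 42202252 of chromosome 19, measured 1.45, 1.61 and 1.40 RPKM in control against 2.94, 3.18 and 2.74 RPKM in low glutamine, from 86, 108 and 65 reads and 190, 199 and 147 reads. The groups did not overlap, with a ratio of 1.99 (0.67 ± 0.07, limma adjusted p = 2.1e-06). Sfrp1, Sfrp2 and Sfrp4, antagonists mostly made by mesenchyme, had at most 2 reads in any library.

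Of the Dkk genes, Dkk3, a divergent family member whose action on Wnt receptors is disputed (chromosome 7, 112116019 to 112159482), had 0 reads in each control library. It had 66, 54 and 55 reads in low glutamine, or 0.513 ± 0.0488 RPKM (adjusted p = 1.9e-05, limma without a filter). Dkk2 had 5, 0 and 2 reads in control and 9, 8 and 1 in low glutamine. The Lrp blocker Dkk1, itself a Wnt target in many tissues, was listed at 0 in all 6 libraries (3 reads would be 0.0349 to 0.0506 RPKM), and Dkk4 had 2 reads in each of 2 low glutamine libraries.

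R-spondins were at or near 0 except Rspo4. Rspo4 (chromosome 2, 151842647 to 151874668) had 9, 9 and 4 reads in control and 88, 104 and 75 reads in low glutamine. These were 0.122, 0.107 and 0.0691 RPKM in control against 1.09, 1.33 and 1.12 RPKM in low glutamine (adjusted p = 3.2e-05, limma without a filter). It stood at 1 RPKM or more in all 3 low glutamine libraries and in no control library, so a limit of 1 RPKM in at least 3 libraries made it the eighteenth tested member. Rspo1 and Rspo3 were at or under 0.0267 RPKM in every library, and Rspo2 was listed at 0 throughout (3 reads would be 0.0254 to 0.0368 RPKM).

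The Dishevelled genes, the cytoplasmic relay below the receptors, differed little between the groups. Dvl1 was modestly lower, at 22.8 ± 1.16 and 19.2 ± 0.546 RPKM (-0.23 ± 0.05, limma adjusted p = 0.0024), and did not pass when the libraries were brought to an equal sum (-0.11, adjusted p = 0.070). Dvl2 measured 8.52 ± 0.812 and 8.33 ± 0.252 RPKM (-0.03 ± 0.06, limma adjusted p = 0.74), with overlapping groups. Its exons share 1151 bases with Acadvl on the other strand. Dvl3 measured 13.9 ± 0.593 and 14.8 ± 0.0645 RPKM (0.09 ± 0.05, limma adjusted p = 0.13), and passed when the libraries were brought to an equal sum (0.21) or quantile normalised (0.11). The sum of the 3 genes was 45.1 ± 2.42 RPKM in control against 42.4 ± 0.433 RPKM in low glutamine.

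**Figure D4:**
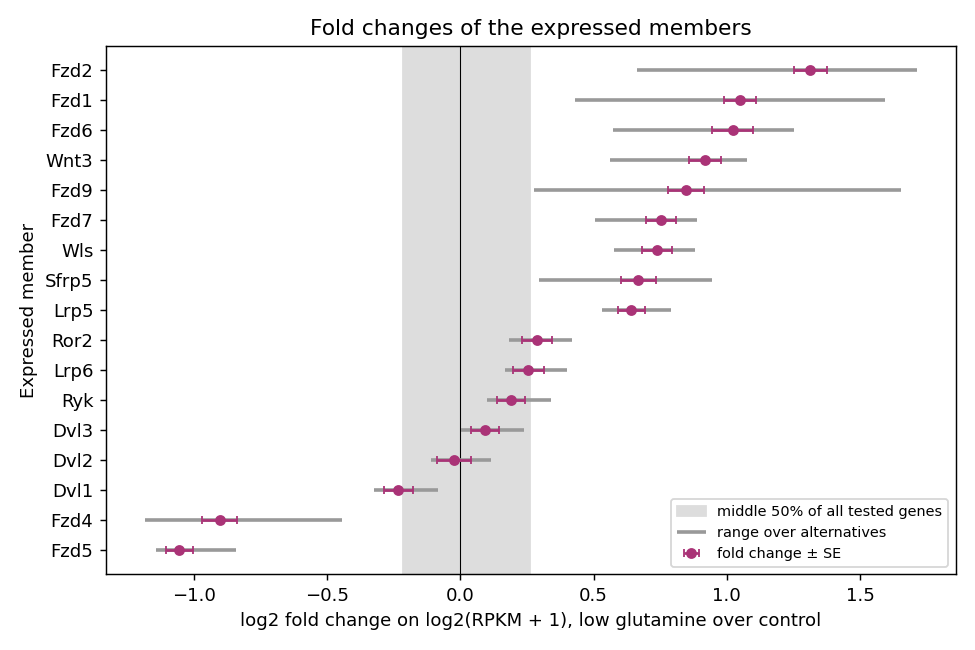
log2 fold changes (low glutamine over control, on log2(RPKM + 1)) of the 17 expressed members with their SE, the range of the value over the alternatives as a grey line, and the middle 50% of all 11082 tested genes as a band from -0.22 to 0.26. The lines of Dvl2 cross 0, and those of Fzd4 and Fzd5 stay below it.

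By the size of the change, 7 of the 15 members expressed in both groups were called at least 1.5-fold higher without overlap and 2 at least 1.5-fold lower. Of the 10531 genes that reached 1 RPKM in both groups, 9.59% and 10.2% were. Fzd1 and Fzd9, which reached the limit only through low glutamine, bring the higher members to 9 of 17, where all tested genes gave 12.4% higher and 10.9% lower. For all 17 but Dvl2 the groups did not overlap, a state found for 70.2% of all tested genes. The 6 that moved by less than 1.5-fold were Lrp6, Ryk, Ror2 and the 3 Dishevelled genes.

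Other genes of the pathway were taken from a list of 69, of which 67 had a row and 40 reached 1 RPKM. Of these 40, 22 were higher, 6 lower and 12 did not pass, with a median log2 fold change of 0.29, where 36.1% of all tested genes were higher and 30.3% lower. Of the 40, 4 (Nkd1, Dact1, Lef1 and Invs) reached the limit only through the low glutamine libraries and therefore had to lie higher. They count among the 22 and lie above the median, which they raise, and neither was taken without them. The 6 with the smallest p were all higher, 2 of them, Nkd1 and Dact1, among those 4. Nkd1, an inhibitor that binds Dishevelled, went from 0.457 ± 0.0882 to 13.7 ± 0.467 RPKM, and the feedback inhibitor Axin2 from 48.8 ± 1.96 to 111 ± 2.51 RPKM. Lgr5, the R-spondin receptor of stem cells, went from 42.5 ± 1.14 to 113 ± 3.87 RPKM. Tpbg, a membrane protein that inhibits Wnt reception at Lrp6, went from 1.79 ± 0.0999 to 8.12 ± 0.940 RPKM, and Dact1, a Dishevelled partner, from 0.108 ± 0.0396 to 2.10 ± 0.122 RPKM. Tspan12 is given above. The 2 ubiquitin ligases that remove Frizzled from the surface, Znrf3 and Rnf43, were higher. Znrf3 stood at 4.63 RPKM in control and 9.58 RPKM in low glutamine, and Rnf43 at 28.3 and 45.8 RPKM. The R-spondin receptor Lgr4 measured 47.7 and 48.6 RPKM (limma adjusted p = 0.70). These last 3 were chosen after their values were seen.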

How the data were processed

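RNA was sequenced from 6 libraries of Apc Min mouse intestinal organoids, 3 in control and 3 in low glutamine medium, grouped by their titles. The deposited values are RPKM per gene and library, made by the authors. Tools listed in the submitters' processing notes, with neither role nor order, are Partek, HISAT2 2.0.4 and CASAVA 1.8, and the build listed is mm10. The annotation, the counting rule and strandedness are not given in the sources used here. A label for treatment names low glutamine for all 6 libraries, those titled control included, so control rests on the titles and source names.

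The test was limma 3.58.1 (R 4.3.3) with a variance trend on log2(RPKM + 1), two-sided, for the 11082 of 24956 rows with a mean of at least 1 RPKM, with Benjamini-Hochberg adjustment over all of them and a threshold of 0.05. It was also run on simulated data, with an outcome that is not given here. Alternatives varied the pseudocount, filter, scaling, variance trend, chromosomes, replicate block and libraries. The genes and lists were chosen with earlier results of these data known. Each library's values are given for expressed members that passed without overlap at a ratio of at least 1.5, and group values for the others.

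Depth was estimated from single-exon genes, in which the RefSeq length gives the value of 1 read: control replicates 1 to 3 had 31.2, 35.4 and 24.4 M (mega) reads, and low glutamine replicates 1 to 3 had 34.0, 32.9 and 28.3 M. Between 75.7% and 84% of the low values checked (136 to 181 per library, including the 25 to 43 that set the depth) were whole reads within 0.02. Read numbers of members use an annotated length for 18 and the smallest whole-read length between 400 and 9000 bases for 13, so the latter are lower bounds. Coordinates are 1-based RefSeq gene bounds on GRCm38.p6 (mm10), and exon overlaps are from GENCODE M21. Of the 50-base words of the transcripts, 16.6% in Fzd5 and 16.3% in Dvl2 recur in another gene, and at most 2.41% in any other expressed member. Tables were made with numpy 2.4.6 and pandas 2.3.3 under Python 3.11.15, and plots with matplotlib 3.10.9.

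Between same-numbered libraries, the correlation of deviations from the group mean was 0.15, 0.25 and 0.57. This met the rule for treating the numbers as paired, but replicates 1 and 2 exchanged met it too (0.36 and 0.20). The correlations thus cannot tell these 2 pairings apart. The groups differ in sex, so same-numbered libraries are not pairs by animal, and the main fit was unpaired.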

Additional observations from a re-analysis of the deposited data

How the results depend on the processing

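Of 285 fold changes of expressed members under the alternatives, 277 kept their direction and side of the threshold, and 14 of 17 members did so throughout. The exceptions were Dishevelled genes. Dvl2 changed sign with libraries rescaled to a common sum (0.088), with the same done without the ribosomal RNA precursor Rn45s, chosen after seeing the data (0.11), and without control replicate 2 (0.042, with -0.074 to 0.042 over the libraries left out in turn), and passed under none of these. Dvl1 did not pass with the 2 rescalings (-0.11 and -0.08), and Dvl3 passed with them (0.21 and 0.24) and with quantile normalization (0.11). Without a filter on low values, more genes were tested, and 26 of 46 members and 34 of the other pathway genes were higher. Of all 18846 rows in that fit, 30.2% were higher. Rescaling without Rn45s gave 6040 genes higher, and the share of calls that were higher went from 54.4% to 71.7%, 69.1% with a common sum and 42.1% with median-of-ratios scaling. With the replicate number as a block, 12 members were higher and 3 lower, as without it, where 69.8% of all tested genes were called. Leaving out a library gave 11 to 12 higher and 3 lower, where 60.2% to 66.2% of all tested genes were called. Fzd9 was below the limit and not tested with median-of-ratios scaling or without any single low glutamine library, which is the source of the lower count. Depth limits the members under 0.1 RPKM, which rest on few reads.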

Other observations

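Genes of planar polarity, the Frizzled-dependent arrangement of cells within a sheet, were also among the other pathway genes measured. Vangl1 and Vangl2, the membrane partners of Frizzled in this process, rose from 1.19 ± 0.118 and 2.11 ± 0.188 RPKM in control to 3.84 ± 0.407 and 3.90 ± 0.118 RPKM in low glutamine. The adhesion receptor Celsr2 rose from 2.03 ± 0.0709 to 4.05 ± 0.0322 RPKM and the pseudokinase Ptk7 from 1.17 ± 0.213 to 3.34 ± 0.171 RPKM (limma adjusted p at most 1.4e-06 for the 4 genes). The formin Daam1 fell from 8.81 ± 0.0237 to 7.52 ± 0.585 RPKM (limma adjusted p = 0.0077), and Prickle3 measured 1.799 ± 0.268 and 1.60 ± 0.0775 RPKM (limma adjusted p = 0.26). These genes were singled out after their values were seen.

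Secreted inhibitors outside the Sfrp and Dkk families were low. Wif1, which binds Wnt ligands, measured 0.0589 ± 0.0111 RPKM in control and 1.11 ± 0.145 RPKM in low glutamine (limma adjusted p = 3.9e-05 without a filter). Notum, the enzyme that removes the lipid from Wnt proteins, measured 0.412 ± 0.0592 and 0.666 ± 0.0109 RPKM (limma adjusted p = 0.0023 without a filter). Porcn, which attaches that lipid and lies on the X chromosome, rose from 1.55 ± 0.122 to 1.98 ± 0.182 RPKM (limma adjusted p = 0.013).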
